A study of Mus musculus with 3 samples.

Results

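Cochlin-rich spiral fibrocytes are mesenchymal cells of the lateral wall of the cochlea, and they were followed here as a gate on single-cell barcodes. The gate does not place its members in the lateral wall, since the study's marker list gives Coch for both spiral limbus and spiral ligament. A barcode was a member when it held 200 to 6000 genes, had at most 15% of its unique molecular identifiers (UMIs) on mitochondrial genes, and carried at least 5 UMIs of Coch and at least 2 UMIs of Otos and Car3 together. It also had to have a UMI in at most 2 of Emilin2, Rarres1, Notum, Otor, Kcnk3 and Dmgdh, and in at most 2 of Abcc9, Moxd1, Cemip, Phex, Slco1a4 and Smpd3. The gate found 18 members among the 1662 barcodes within the limits on genes and mitochondrial UMIs at postnatal day 14 (P14), 315 of 5651 in replicate 1 at P28 and 551 of 7065 in replicate 2 at P28. In all, 884 of 14378 barcodes were members, which was 1.08%, 5.57% and 7.80% of the barcodes of the 3 libraries.

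The study profiled cochlear tissue of C57/B6 mice, as the labels write the strain, at P14 and P28 after the bony cochlear wall was removed. It used the 10x Genomics droplet method, which tags the 3′ end of each transcript. The labels name no transgene and no treatment. Each library pooled 7 mice (14 ears), and the tissue came mostly from the upper basal to the apical turns after digestion with collagenase. P14 was covered by 1 library and P28 by 2, which held 10125255, 35485894 and 37530956 UMIs over 2513, 11948 and 18196 barcodes, so P14 against P28 has no replicate check. The members held 72125, 1361271 and 1961666 UMIs, and the P14 sum is far the shallowest. In the P14 library 4 barcodes alone held 53102 of the members' UMIs. Of the barcode sequences, 10, 20 and 54 were shared between P14 and P28 replicate 1, P14 and P28 replicate 2, and the P28 replicates, and none by all 3 libraries.

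Spiral fibrocytes fill the spiral ligament behind the stria vascularis. They are joined by gap junctions of connexin 26 and connexin 30, take up potassium that leaves the hair cells, and pass it toward the stria, while others of them anchor the basilar membrane and build the collagen matrix of the ligament. Cochlin, the product of Coch, is among the most abundant proteins of the inner ear and is secreted by these cells, and changes in COCH, GJB2, GJB6 and POU3F4 cause hereditary deafness in people.

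Levels are given as CPM, the UMIs of a gene relative to all UMIs summed over the members of a library, in the order P14, P28 replicate 1 and P28 replicate 2. The genes of the gate, whose values chose the members, were at the following levels, and no test of them is reported. Coch (chromosome 12, 51593341 to 51605771, mm10) stood at 7529, 8558 and 7481 CPM in members and at 578, 983 and 1349 CPM in all other barcodes within the limits. Otos (chromosome 1, 92644218 to 92648841), which encodes the secreted protein otospiralin, stood at 13948, 8455 and 5804 CPM against 243, 388 and 842 CPM, and Car3 (chromosome 3, 14863512 to 14872523), a carbonic anhydrase, at 1220.1, 1778 and 1551 CPM against 891, 313 and 246 CPM. Members with a UMI of at least 3 of the 4 label genes Coch, Otos, Car3 and Col2a1 numbered 18 of 18, 216 of 315 and 373 of 551.

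The gate had barcodes close to it on either side. Exactly 5 Coch UMIs were found in 1, 17 and 46 members, while 3, 21 and 69 barcodes were within the rule except for having 4 Coch UMIs. In P28 replicate 1 the summed level of Gjb2 was 2071 CPM in the members with 5 Coch UMIs and 838 CPM in the barcodes with 4, whereas in P28 replicate 2 it was 675 and 1157 CPM, so for Gjb2 the order of the 2 sides differed between these libraries. Fxyd2 was higher in the members with 5 Coch UMIs in both, at 944 against 515 CPM and 1187 against 359 CPM. At P14, where the sides held 1 and 3 barcodes, Gjb2 stood at 565 and 126 CPM and Fxyd2 had no UMI.

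Coch UMIs were also found in barcodes of other kinds. Barcodes that carried at least 3 of 5 outer hair cell markers, cells that should lack Coch, held 8.13, 297 and 350.3 CPM of Coch at median depths of 6792, 5384 and 4085 UMIs, and none, 5.65% and 6.89% of them had at least 5 Coch UMIs. Among them 0, 8 and 12 were members. Ptgds stood at 27.1, 348 and 677 CPM and Otos at 104, 169 and 342 CPM in the same barcodes. Barcodes with at least 3 of 5 macrophage markers held 36.0, 867 and 814 CPM of Coch at median depths of 4797.5, 2427.5 and 2246 UMIs, and none, 8.52% and 10.5% had at least 5 Coch UMIs. Barcodes with at least 3 of 5 red cell markers, of which 1, 25 and 33 were members, held the most, with 1053, 1249 and 1756 CPM at median depths of 4475, 2562.5 and 2531.5 UMIs, and 7.10%, 14.1% and 16.8% had at least 5 Coch UMIs. Ptgds stood at 175, 2829 and 2954 CPM in the red cell marker barcodes. The macrophage marker barcodes held 0, 8 and 14 members, and all these levels include the UMIs of the members among the barcodes. The part that such RNA, or droplets with more than 1 cell, had in the selection of members was not tested.

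Members differed widely among themselves in Coch. Per member, Coch ranged from 471 to 63670.4 CPM at P14, from 523 to 100533 CPM in P28 replicate 1 and from 339 to 122222 CPM in P28 replicate 2, with medians of 15029, 7888 and 6148 CPM. Members under 8000 Coch CPM, a value set after the levels had been seen, were 4 of 18, 160 of 315 and 320 of 551, with median depths of 13209, 4419 and 3545 UMIs. Members at 8000 CPM and over were shallower, with medians of 974.5, 1440 and 1242 UMIs. The members under 8000 CPM held 73.6%, 79.4% and 80.9% of the summed UMIs, and weigh most in every sum over members. Over 3000 genes, which can mark droplets with more than 1 cell, were found in 3, 63 and 74 members under 8000 CPM and in 0, 3 and 3 of the others. Their summed Coch level was 1770.2, 3272 and 2905 CPM, against 9198, 2841 and 3572 CPM in barcodes of the tympanic border, described below, which the gate excludes, and 578, 983 and 1349 CPM in all other barcodes. Per UMI these members were below tympanic border barcodes at P14 and in P28 replicate 2 and above them in P28 replicate 1, so the data do not bear out the label cochlin-rich for them against that class. The Abcc9, Moxd1 and Cemip barcodes, the other class set aside by the gate, held 1675, 5975 and 6381 CPM of Coch, which was above the members under 8000 CPM in both P28 libraries and below them at P14, so the label is not borne out against that class at P28 either. All members together also stood below tympanic border barcodes at P14, at 7529 against 9198 CPM, and above them in both P28 libraries. The members at 8000 CPM and over stood at 23603, 28879 and 26848 CPM. Values just around 8000 CPM were common, with 2, 42 and 69 members between 6400 and 10000 CPM. Whether the ranges hold different kinds of cells was not tested.

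**Figure D1:**
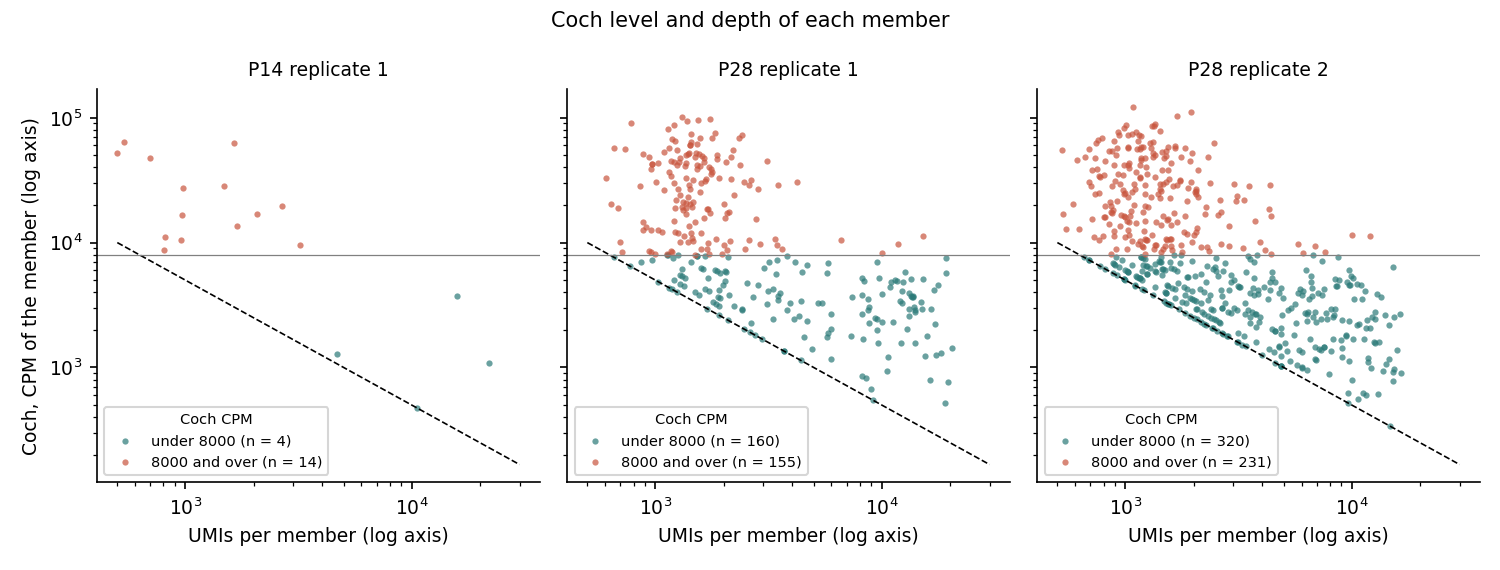
Coch level of each member (CPM, log axis) against its UMIs (log axis), 1 panel per library and 1 point per member, with a line at 8000 CPM. The 160 and 320 members under the line at P28 have median depths of 4419 and 3545 UMIs, and the 155 and 231 members above it have medians of 1440 and 1242 UMIs.

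Members under 8000 Coch CPM held more of several genes of ion transport and of connexin 26. A gene was counted when the ranges differed at least 2-fold in the same direction in both P28 libraries, with at least 100 CPM in the higher range and 95% Poisson intervals that did not overlap, and since Coch set the ranges the counts are a description. Of 1698 genes that reached 100 CPM, 125 (7.36%) were higher under 8000 Coch CPM and 101 (5.95%) at 8000 and over. Of the 9 ion transport genes, 3 were higher under 8000 CPM and none at 8000 and over, and of the 2 connexins Gjb2 was higher under 8000 CPM. Fxyd2 (chromosome 9, 45399669 to 45410278), the gamma subunit that modulates the sodium-potassium pump, stood at 4859.9 and 4112 CPM under 8000 Coch CPM against 231 and 691 CPM at 8000 and over in the P28 libraries. The potassium channel Kcnk2 (chromosome 1, 189207930 to 189402273) stood at 2119.8 and 1753 CPM under 8000 Coch CPM against 249 and 251 CPM at 8000 and over, and the pump subunit Atp1b1 at 2886 and 2556 CPM under 8000 Coch CPM against 356 and 552 CPM at 8000 and over. The connexin 26 gene Gjb2 stood at 3929 and 2708 CPM under 8000 Coch CPM against 957 and 1061 CPM at 8000 and over. All 4 genes were higher under 8000 Coch CPM in both P28 libraries, and the levels of the ranges did not overlap. Snap25, a marker of spiral ganglion neurons, moved with them and had the largest ratio in this direction of the genes with at least 200 CPM. It stood at 238 and 349.8 CPM under 8000 Coch CPM against 24.9 and 26.7 CPM at 8000 and over. Its part in the difference was not tested. Slc12a2, another gene of the ion transport list, was further above tympanic border barcodes, described below, in the higher range, with a log2 fold change of 1.00 in members under 8000 CPM and 2.19 in those at 8000 and over.

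Matrix genes ran the other way, as 9 of 10 collagens and 10 of 12 proteoglycans and glycoproteins that reached 100 CPM were higher at 8000 Coch CPM and over and none under 8000. Col2a1 (chromosome 15, 97975602 to 98004695), the type II collagen chain of cartilage and of the spiral ligament and the fourth label gene, stood at 12 and 31.5 CPM under 8000 Coch CPM against 740.2 and 701 CPM at 8000 and over. Aggrecan, Acan (chromosome 7, 79053483 to 79115099), stood at 38.9 and 23.3 CPM under 8000 Coch CPM against 527 and 496 CPM at 8000 and over. Both were higher at 8000 Coch CPM and over in both P28 libraries. Markers of other kinds of cells moved with them. Slco1a4, a gene of the gate that marks the Abcc9, Moxd1 and Cemip barcodes and had the largest ratio of the genes with at least 200 CPM, stood at 5.55 and 8.82 CPM under 8000 Coch CPM against 302 and 224 CPM at 8000 and over, and Dmp1, a gene of bone, at 5.55 and 12.6 CPM under 8000 Coch CPM against 278 and 240.0 CPM at 8000 and over. Their part in the difference was not tested. Spp1, the matrix phosphoprotein osteopontin, was present in both ranges, at 2633 and 2337 CPM under 8000 Coch CPM against 9135 and 7366 CPM at 8000 and over. Col11a2 showed 287 and 253 CPM under 8000 Coch CPM against 1093 and 989 CPM at 8000 and over. Outside the matrix, Trf, the iron carrier transferrin, stood at 318 and 269.7 CPM under 8000 Coch CPM against 2463 and 1939 CPM at 8000 and over, and the protease inhibitor Cst3 at 898 and 851 CPM under 8000 Coch CPM against 6217 and 5419 CPM at 8000 and over. Other genes differed less between the ranges, such as S100b, a calcium-binding protein, at 1253 and 1195 CPM under 8000 Coch CPM against 1263 and 1400.1 CPM at 8000 and over, and Pou3f4, a transcription factor of the otic mesenchyme, at 372 and 384 CPM under 8000 Coch CPM against 253 and 285 CPM at 8000 and over.

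Over 6 finer ranges of Coch the change did not fall at the same place for every gene. From the lowest range (under 2000 CPM) to the highest (32000 CPM and over), Fxyd2 stood at 6162, 4049.8, 4742, 497, 15.3 and 60.5 CPM in P28 replicate 1 and at 3900.3, 4503, 3881, 1531, 129 and 29.5 CPM in P28 replicate 2. Col2a1 stood at 9.79, 13.5, 12.2, 163, 967 and 1271 CPM, and at 18.4, 24.6, 59.7, 121, 932 and 1337 CPM. Fxyd2 was lower from 8000 Coch CPM upward, and Col2a1 was highest from 16000 Coch CPM upward. Otos had its highest level between, at 33059 and 21629 CPM in members of 8000 to 16000 Coch CPM, against 760.5 and 1179 CPM under 2000 and 11745 and 8011 CPM at 32000 and over. Otos and Coch are genes of the gate, so these levels are a description.

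**Figure D2:**
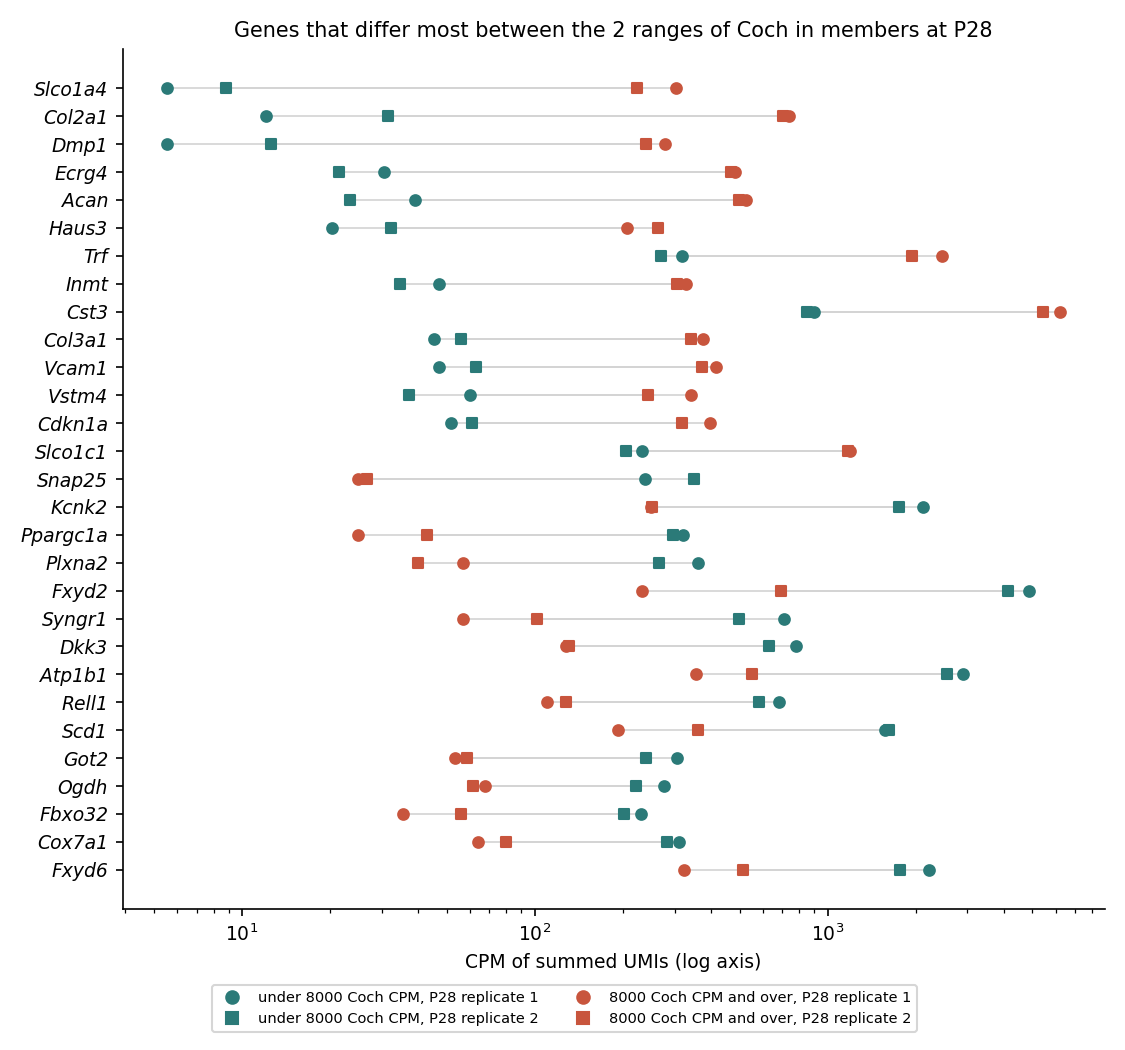
Summed level (CPM, log axis) of the genes that differed most between members under 8000 Coch CPM and members at 8000 and over, with 1 point for each P28 library and range. Fxyd2, Kcnk2 and Snap25 lie to the right in the members under 8000 CPM, and Col2a1, Acan and Trf in the others.

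Few thinned members carried genes of both sets. After each member was thinned to 1000 UMIs, which left 10, 290 and 471 members, 75 of 290 members in P28 replicate 1 (25.9%) had a UMI of Fxyd2 or Kcnk2 and none of Acan, Col2a1 or Trf. The reverse held in 128 (44.1%), 20 (6.90%) had a UMI of both sets, and 67 had none. In P28 replicate 2 these were 111 of 471 (23.6%), 183 (38.9%), 41 (8.70%) and 136 members. Members with the first set alone had a median of 3 Coch UMIs among their 1000 in both libraries, and members with the second set alone had 22.5 and 15. In tympanic border barcodes at P28 thinned the same way, 9.90% and 10.7% had the first set alone and 15.0% and 18.3% the second. In the Abcc9, Moxd1 and Cemip barcodes these were 6.67% and 6.47%, and 38.1% and 41.0%, so for the second set the shares of members and of this class lay close together at P28. The genes were picked after their levels had been seen, and the part of free RNA in each share was not tested. At P14, 2 of 10 thinned members had the first set alone, 6 the second alone and none had both.

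Among thinned members the genes with the largest variance relative to their mean were named over all 3 libraries as Malat1, a nuclear noncoding RNA, Coch, Ptgds, S100a1, Spp1, Ptn, Otos, Cst3, Igfbp5 and Epyc. At P28 the ratio of variance to mean was 148 and 93.3 for Ptgds, the enzyme that makes prostaglandin D, 140.1 and 85.1 for Otos and 25.4 and 28.2 for Coch, against a median of 1.11 and 1.10 over the 1061 genes with at least 0.1 UMI per thinned member. The haemoglobin gene Hbb-bs had the largest ratio at P28, at 377 and 227, and 25 and 33 members carried at least 3 of 5 red cell markers.

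By the mean of the CPM of the 3 libraries, the most abundant transcripts of the members besides Malat1, Coch and Otos were Ptgds at 2801, 16485 and 14232 CPM, the lipid carriers Apod at 5019, 6423 and 5803 CPM and Apoe at 5906, 3585 and 3468 CPM, and Igfbp5, which binds insulin-like growth factors, at 6988, 2734 and 3452 CPM. S100a1, a calcium-binding protein, the growth factor Ptn and the ferritin chain Fth1 followed. In both P28 libraries Fth1, at 4516 and 4193 CPM, stood above Apoe and Igfbp5. With the genes of the gate left out, the genes that stood highest over all other barcodes within the limits, by the smallest ratio of the 3 libraries, were Fxyd2, with ratios of 36.8, 44.6 and 28.4, and Kcnk2, with ratios of 26.2, 23.3 and 14.8. Then came Slc5a3, a carrier of the osmolyte myo-inositol, with ratios of 9.0, 12 and 10.1, Iqgap2, Nat8f1, Map2k6, Pcolce2, Cald1 and Plxna2. Cald1 stood higher in the Abcc9, Moxd1 and Cemip barcodes, described below, at 1015, 1652 and 1285 CPM, than in members, at 873, 879 and 822 CPM. None of these genes was part of the gate, but the gate picked the members from the other barcodes, so the ratios were not tested.

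Members were compared with the mesenchymal barcodes that the gate sets aside. Tympanic border barcodes had a UMI in at least 3 of Emilin2, Rarres1, Notum, Otor, Kcnk3 and Dmgdh and in at most 2 of the other list, and they numbered 65, 646 and 879. Abcc9, Moxd1 and Cemip mesenchymal barcodes met the reverse rule and numbered 74, 111 and 156. UMIs were summed per library and class and tested with edgeR's quasi-likelihood test with the library as a block and Benjamini-Hochberg adjustment over all genes tested, at an adjusted p under 0.05. Genes of the gate that passed the filter on low counts, whose differences were set by the selection, were not removed from the fit. They are part of the adjustment and of the counts of all genes, but not of the lists or the genes named from the tests. Of all genes tested, 34.6% of 10770 differed from tympanic border barcodes and 14.0% of 5523 from the Abcc9, Moxd1 and Cemip barcodes. In the first comparison 1980 genes (18.4%) were higher in members and 1747 (16.2%) lower, and in the second 402 (7.28%) were higher and 372 (6.74%) lower. The median log2 fold change over all genes tested lay within 0.02 of 0 in each comparison. Both comparisons use the same member sums. The classes were set by UMIs of the same barcodes, so a call says that the difference between barcodes chosen in this way repeated over the 3 libraries, which are the only replicates and were pools of animals.

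Against tympanic border barcodes, the connexins of the fibrocyte gap junctions, the pump subunit gene Atp1b1 and the channel gene Kcnk2 were higher in members. Gjb2 (chromosome 14, 57098600 to 57104702), which encodes connexin 26, stood at 1830.2, 3315 and 2393 CPM in members and 9.22, 128 and 109 CPM in tympanic border barcodes, a log2 fold change of 4.82 ± 0.33 (SE; edgeR adjusted p = 3.44e-08). Gjb6 (chromosome 14, 57123303 to 57133611), which encodes connexin 30, stood at 735, 1196 and 997 CPM against 4.61, 60.5 and 75.2 CPM, a log2 fold change of 4.09 ± 0.25 (SE; edgeR adjusted p = 1.02e-08). No library of either class overlapped the other for these genes. In the members at 8000 Coch CPM and over the log2 fold changes were 3.16 and 3.18. Of the 4 connexin and pannexin genes tested, 3 were higher and 1 lower, beside 18.4% and 16.2% of all genes, with a median log2 fold change of 2.85.

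The beta subunit Atp1b1 of the sodium-potassium pump stood at 943, 2364 and 2173 CPM against 55.3, 158 and 216 CPM, with a log2 fold change of 3.58 ± 0.24 (SE; edgeR adjusted p = 2.43e-08). The pump regulator Fxyd6 and the sodium-potassium-chloride carrier Slc12a2 were also higher, by log2 fold changes of 1.52 and 1.33, but Fxyd6 stood at -0.36 in the members at 8000 Coch CPM and over, where the test was not passed (edgeR adjusted p = 0.357), and Atp1b1 at 1.23 there against 3.87 in the others. With at most 3000 genes and 15000 UMIs per barcode Fxyd6 stood at 0.56 and did not pass the test either (edgeR adjusted p = 0.161). Without P28 replicate 2 Slc12a2 stood at 1.19 and did not pass the test (edgeR adjusted p = 0.0553). Slc4a11, an ion transporter known from fibrocytes and the cornea, stood at 0, 28.6 and 51.0 CPM against 9.22, 126 and 132 CPM and was lower, with a log2 fold change of -1.73 ± 0.18 (SE; edgeR adjusted p = 2.38e-06). Over the ion transport list, 8 of the 20 tested genes were higher and 2 lower, with a median log2 fold change of 0.37. Without P28 replicate 1 this count was 5 of 20 higher and 1 lower, beside 725 and 586 of all 10063 genes. Without P28 replicate 2 it was 3 of 18 higher and 1 lower, beside 478 and 346 of all 9113 genes.

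Outside the list, Kcnk2 stood at 1109, 1734 and 1466 CPM against 78.3, 137 and 117 CPM, with a log2 fold change of 3.56 ± 0.21 (SE; edgeR adjusted p = 7.97e-09), and Slc5a3 at 291, 976 and 1038 CPM against 18.4, 44.3 and 51.3 CPM, with a log2 fold change of 4.31 ± 0.18 (SE; edgeR adjusted p = 5.14e-10). In both genes every member library lay above every tympanic border library. In the members at 8000 Coch CPM and over Kcnk2 stood at 0.93, against 3.86 in the others, and Slc5a3 at 3.66. Car14, a membrane carbonic anhydrase, was higher by 2.03 on the log2 scale, by 1.31 in the members at 8000 Coch CPM and over and by 1.43 without P28 replicate 1, and over the carbonic anhydrases and aquaporins 2 of the 7 tested genes were higher and 1 lower, with a median log2 fold change of 0.32.

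Against the Abcc9, Moxd1 and Cemip barcodes the same transport genes were compared. Gjb2 stood at 1830.2, 3315 and 2393 CPM in members and 309, 398 and 225 CPM in these barcodes, a log2 fold change of 2.99 ± 0.30 (SE; edgeR adjusted p = 3.79e-05), and Gjb6 had 146, 227 and 146 CPM there, with a log2 fold change of 2.49 ± 0.26 (SE; edgeR adjusted p = 4.51e-05). Both connexins tested were higher, beside 7.28% of all genes. Atp1b1, at 87.5, 352 and 270.2 CPM in the comparison barcodes, had a log2 fold change of 2.99 ± 0.29 (SE; edgeR adjusted p = 2.51e-05). Fxyd6, Slc12a2, Slc5a3 and Car14 were higher by log2 fold changes of 2.03, 1.09, 1.69 and 1.27, and the water channel Aqp1 was lower, at -1.84. Over the ion transport list 4 of the 14 tested genes were higher and 0 lower, with a median log2 fold change of 0.27, and over the carbonic anhydrases and aquaporins 1 of the 4 tested genes was higher and 1 lower, with a median log2 fold change of 0.61. In the members at 8000 Coch CPM and over, Atp1b1 stood at 0.49, Fxyd6 within 0.01 of 0, Car14 at 0.56 and Aqp1 at -1.17, and none of these passed the test (edgeR adjusted p of 0.554, 1.000, 0.318 and 0.0732). Gjb2, Gjb6, Slc5a3 and Slc12a2 stood at 1.36, 1.53, 1.10 and 1.97 in that range. The call of Slc12a2 was lost with the members under 8000 CPM (edgeR adjusted p = 0.0589) and without P28 replicate 1 (edgeR adjusted p = 0.0844), and that of Car14 without P28 replicate 2 (edgeR adjusted p = 0.0538).

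Type II collagen stood between the comparison classes. Col2a1 stood at 2981, 162 and 159.6 CPM in members and at 424, 59.1 and 83.3 CPM in tympanic border barcodes, a log2 fold change of 1.49 ± 0.21 (SE; edgeR adjusted p = 4.43e-05), but at 5812, 252 and 1224 CPM in the Abcc9, Moxd1 and Cemip barcodes, a log2 fold change of -1.54 ± 0.41 (SE; edgeR adjusted p = 0.0227). Members were above the first class in every library and below the second in every library. These values changed with the range of Coch. Members under 8000 Coch CPM had a Col2a1 log2 fold change of -1.70 against tympanic border barcodes and -4.94 against the second class, and members at 8000 CPM and over had 3.63 and 0.49, of which the last did not pass the test (edgeR adjusted p = 0.699). Without the members with a UMI of the bone genes Ibsp, Bglap, Bglap2 or Dmp1 the values were 0.45 and -2.75. This left out 8, 56 and 85 members, while only 6, 3 and 14 members had a UMI of Ibsp, Bglap or Bglap2. At P28 it thus took out mostly members with Dmp1, which like Col2a1 was higher at 8000 Coch CPM and over. Bone genes and the range of Coch cannot be told apart by it, and the comparison classes were left as they were. Without P28 replicate 2 Col2a1 stood at -0.82 against the second class (edgeR adjusted p = 0.538), and without the replicate block neither comparison passed (edgeR adjusted p = 0.166 and 0.553). The call against the second class was also lost with barcodes thinned to 1000 UMIs, at -0.54, with at most 3000 genes and 15000 UMIs, at -0.44, and without barcodes with markers of another cell type, at -0.35 (edgeR adjusted p = 0.396, 0.719 and 0.467).

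Of the collagen list, 12 of the 25 tested genes were higher and 5 lower, with a median log2 fold change of 0.38, against tympanic border barcodes. This count turned with the range of Coch, with 12 of 17 higher and 3 lower (median log2 fold change 1.40) for the members at 8000 Coch CPM and over, beside 9.94% and 11% of all genes, and 5 of 24 higher and 12 lower (median -0.61) for those under 8000 CPM, beside 19.3% and 18.3% of all genes. Without the members with a UMI of the bone genes Ibsp, Bglap, Bglap2 or Dmp1, 8 of 24 were higher and 7 lower (median -0.04), beside 18.8% and 17.1% of all genes. As said for Col2a1, this took out mostly members with Dmp1 at P28, so bone genes and the range of Coch cannot be told apart. Col9a3 and Col11a2, chains that assemble with type II collagen, were higher by 3.27 ± 0.19 and 3.40 ± 0.18 (SE) on the log2 scale, by 4.50 and 4.86 in the members at 8000 Coch CPM and over, and Col13a1, a transmembrane collagen, was lower, at -3.64 ± 0.26 (SE), at 13.9, 4.41 and 5.61 CPM against 401, 53.0 and 55.0 CPM. Against the Abcc9, Moxd1 and Cemip barcodes 0 of the 18 tested genes were higher and 10 lower, with a median log2 fold change of -1.74, and among these Col1a2 and Col3a1 stood at -1.86 and -1.66. Neither passed the test with the members at 8000 Coch CPM and over, at -0.48 and -0.14 (edgeR adjusted p = 0.703 and 0.927), or without the replicate block (edgeR adjusted p = 0.273 and 0.131). Without P28 replicate 2 Col1a2 stood at -1.15 and did not pass it (edgeR adjusted p = 0.318). Type I collagen is the main collagen of bone, and type III is found in loose connective tissue. With the members at 8000 Coch CPM and over, 5 of 17 collagens were higher and 4 lower than in the second class, beside 1.91% of all genes in each direction, and with those under 8000 CPM 0 of 18 were higher and 13 lower, beside 8.96% and 8.62% of all genes. Without the members with a UMI of the 4 bone genes these were also 0 and 13 of 18, beside 7.55% and 7.67% of all genes. The bone genes Ibsp, Bglap, Bglap2 and Dmp1 took 2.56% of the UMIs of the second class in P28 replicate 2, where 16 of 156 barcodes had a UMI of the first 3. Without all barcodes of either class with such a UMI 0 of 18 collagens were higher and 11 lower, beside 7.59% and 7.63% of all genes.

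Among proteoglycans and glycoproteins, Acan stood at 69.3, 139.6 and 114 CPM in members and at 0, 2.23 and 5.92 CPM in tympanic border barcodes, with a log2 fold change of 4.85 ± 0.26 (SE; edgeR adjusted p = 3.95e-09), and at 46.7, 78.2 and 90.1 CPM in the second class, with a log2 fold change of 0.55 ± 0.23 (SE; edgeR adjusted p = 0.145) that did not pass the test. Members under 8000 Coch CPM were at -1.59 against the second class and members at 8000 and over at 2.60, and both passed. The difference passed, with members higher, with barcodes thinned to 1000 UMIs, at 0.99, with at most 3000 genes and 15000 UMIs, at 1.31, with at least 10 Coch UMIs, at 0.77, and without barcodes with markers of another cell type, at 0.88 (edgeR adjusted p = 0.0395, 0.00575, 0.0255 and 0.0216). Without members with a bone gene UMI, at P28 mostly of Dmp1, it was -0.15 (edgeR adjusted p = 0.796). Decorin, Dcn, was higher than in tympanic border barcodes by 1.18 on the log2 scale, but without P28 replicate 2 it did not pass the test (edgeR adjusted p = 0.0550). Fibronectin, Fn1, was lower, at 139, 44.1 and 78.5 CPM against 737, 1148 and 1280.2 CPM and a log2 fold change of -4.17 ± 0.28 (SE; edgeR adjusted p = 2.67e-08), as was tenascin C, Tnc, at -3.83. Leaving out P28 replicate 1 or 2 gave 4.24 and 5.90 for Acan and -3.24 and -5.97 for Tnc in this comparison. Over the list 14 of the 28 tested genes were higher and 4 lower, with a median log2 fold change of 0.71 against tympanic border barcodes, and 1 of the 22 tested genes was higher and 13 lower, with a median log2 fold change of -1.15 against the second class, where the gene higher in members was Tnxb. Without P28 replicate 2 the first count was 6 of 27 higher and 2 lower (median 0.20), beside 478 and 346 of all 9113 genes. With the members under 8000 Coch CPM, 8 of 25 were higher and 8 lower than in tympanic border barcodes (median -0.19), beside 19.3% and 18.3% of all genes, and with those at 8000 and over 15 of 21 were higher and 2 lower (median 1.41), beside 9.94% and 11%. Against the second class these were 2 of 23 higher and 19 lower (median -1.94), beside 8.96% and 8.62%, and 1 of 22 higher and 2 lower (median -0.05), beside 1.91% each.

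**Figure D3:**
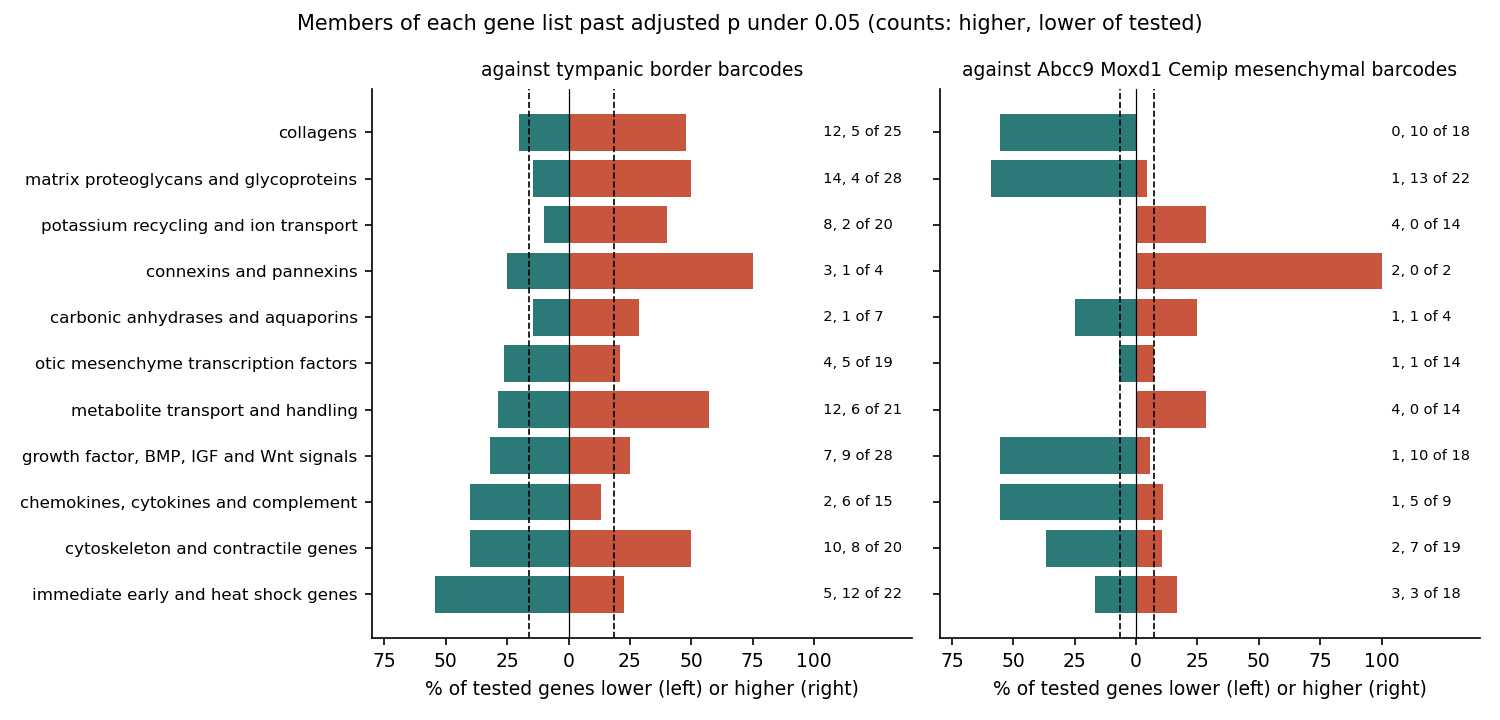
Share of the tested genes of each list that were higher (right) or lower (left) in members at an adjusted p under 0.05 in edgeR's quasi-likelihood test, against each comparison class, with the counts beside the bars. Collagens run 12 higher and 5 lower of 25 against tympanic border barcodes and 0 higher and 10 lower of 18 against the Abcc9, Moxd1 and Cemip barcodes.

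Ptgds (chromosome 2, 25466709 to 25470046) stood at 2801, 16485 and 14232 CPM in members, 4.61, 673 and 1194 CPM in tympanic border barcodes and 70.0, 1727 and 2359.9 CPM in the second class, with log2 fold changes of 4.66 ± 0.51 (SE; edgeR adjusted p = 3.79e-06) and 3.54 ± 0.44 (SE; edgeR adjusted p = 1.62e-04). They were 4.0 and 2.89 without P14 and 5.69 and 4.19 without P28 replicate 2, and the second did not pass the test without the replicate block (edgeR adjusted p = 0.0834). Its level in outer hair cell barcodes, 27.1, 348 and 677 CPM, also differed between the ages. Its level in red cell marker barcodes, 175, 2829 and 2954 CPM, was above both comparison classes in every library. These barcodes include members, 0, 8 and 12 of the former and 1, 25 and 33 of the latter, so the levels hold Ptgds of members too. The part of free RNA in the comparison classes was not tested. Apod and the metal-binding Mt1 were higher than in tympanic border barcodes by 2.06 and 2.82, and Slc7a11, the cystine carrier, by 3.03, while Crym, a thyroid hormone-binding crystallin, was lower, at 0, 4.41 and 6.12 CPM against 46.1, 32.3 and 32.8 CPM and -2.70 on the log2 scale. Against the second class Mt1 and the creatine kinase Ckb were higher by 1.99 and 1.47, but in the members at 8000 Coch CPM and over they stood at 0.45 and 0.80 and did not pass the test (edgeR adjusted p = 0.585 and 0.144). Mt1 stood at 2.75 without P28 replicate 2. Over the metabolite list 12 of the 21 tested genes were higher and 6 lower, with a median log2 fold change of 1.19 against tympanic border barcodes, and 4 of the 14 tested genes were higher and 0 lower, with a median log2 fold change of 0.52 against the second class. Without P28 replicate 1 the first count was 9 of 20 higher and 2 lower, beside 725 and 586 of all 10063 genes. Without P28 replicate 2 it was 7 of 19 higher and 1 lower, beside 478 and 346 of all 9113 genes.

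Among transcription factors of the otic mesenchyme, Sox9, a regulator of cartilage matrix genes, stood at 513, 794 and 662 CPM in members, 69.1, 163 and 185 CPM in tympanic border barcodes and 187, 295 and 233 CPM in the second class, with log2 fold changes of 2.06 ± 0.16 (SE; edgeR adjusted p = 1.45e-07) and 1.44 ± 0.23 (SE; edgeR adjusted p = 0.00102). Each member library was above every library of the other classes. Pou3f4 (chromosome X, 110814280 to 110817207) stood at 458, 347 and 366 CPM in members, 396, 420.3 and 438 CPM in tympanic border barcodes and 60.5, 148 and 184 CPM in all other barcodes. Its log2 fold change against tympanic border barcodes was -0.30 ± 0.14 (SE; edgeR adjusted p = 0.111), which did not pass the test, with the P14 members above and both P28 libraries below, and without P14 it was -0.36 and passed (edgeR adjusted p = 0.0185). Over the list 4 of the 19 tested genes were higher and 5 lower, with a median log2 fold change of -0.06 against tympanic border barcodes, and 1 of the 14 tested genes was higher and 1 lower, with a median log2 fold change of -0.08 against the second class. Over all genes the shares were 18.4% and 16.2%, and 7.28% and 6.74%. Without P28 replicate 1 the first count was 3 of 19 higher and 0 lower, beside 725 and 586 of all 10063 genes. Without P28 replicate 2 it was 2 of 16 higher and 0 lower, beside 478 and 346 of all 9113 genes.

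Of the secreted signals, Dkk3, a Dickkopf-related protein, stood at 180.2, 643 and 534 CPM in members, 78.3, 178 and 182 CPM in tympanic border barcodes and 70.0, 135 and 95.4 CPM in the second class, with log2 fold changes of 1.59 ± 0.16 (SE; edgeR adjusted p = 1.47e-06) and 2.19 ± 0.26 (SE; edgeR adjusted p = 1.05e-04). In members at 8000 Coch CPM and over it was at -0.48 and 0.18, and neither passed the test (edgeR adjusted p = 0.181 and 0.926). Bmp4, a bone morphogenetic protein, was lower than in either class, at -2.0 and -1.95, Ccn3 was lower than in tympanic border barcodes at -3.50, and Igf2 lower than in the second class at -2.23 and at -0.99 with the members at 8000 Coch CPM and over. Ccn3 stood at -4.87 without P28 replicate 2. Over the list of growth factors 7 of the 28 tested genes were higher and 9 lower, with a median log2 fold change of -0.09 against tympanic border barcodes, and 1 of the 18 tested genes was higher and 10 lower, with a median log2 fold change of -1.32 against the second class. The chemokine Cxcl12 was higher than in tympanic border barcodes by 2.38 and lower than in the second class, at -0.98 (edgeR adjusted p = 0.00396). The chemokine Ccl11 and the complement inhibitor Serping1 were lower than in the second class, with log2 fold changes of -2.94 ± 0.31 (SE; edgeR adjusted p = 4.26e-05) and -2.52 ± 0.22 (SE; edgeR adjusted p = 1.42e-05). Over the list of chemokines, cytokines and complement 2 of the 15 tested genes were higher and 6 lower, with a median log2 fold change of -0.58, and 1 of the 9 tested genes was higher and 5 lower, with a median log2 fold change of -0.98, in the same order of classes.

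S100b stood at 749, 1255 and 1234 CPM in members, 41.5, 67.2 and 169 CPM in tympanic border barcodes and 111, 159.9 and 328 CPM in the second class, with log2 fold changes of 3.51 ± 0.26 (SE; edgeR adjusted p = 8.52e-08) and 2.48 ± 0.30 (SE; edgeR adjusted p = 1.31e-04). S100a1, which is also in the marker list of organ of Corti supporting cells, stood at 5754, 3482 and 3348 CPM in members, 332, 1457 and 1565 and 356, 2195 and 1867 CPM in these classes, and higher in all other barcodes, at 11432, 9747 and 6668 CPM. Its log2 fold changes were 1.87 ± 0.40 (SE; edgeR adjusted p = 0.00203) and 1.68 ± 0.53 (SE; edgeR adjusted p = 0.0492), and 1.08 and 0.72 without P14. In the members at 8000 Coch CPM and over neither passed the test, at 0.85 and 0.61 (edgeR adjusted p = 0.0776 and 0.431), nor did the first without barcodes with markers of another cell type (edgeR adjusted p = 0.238) or without P28 replicate 2 (edgeR adjusted p = 0.0635). Caldesmon, Cald1, was higher than in tympanic border barcodes by 2.56, but its level was below that of the second class in every library. Cav1, the coat protein of caveolae, was lower, at 27.7, 115 and 217 CPM against 1465, 1346 and 1463 CPM and a log2 fold change of -3.51 ± 0.32 (SE; edgeR adjusted p = 7.08e-07), as was vimentin, Vim, at -1.73. Over the cytoskeleton list 10 of the 20 tested genes were higher and 8 lower, with a median log2 fold change of 0.40 against tympanic border barcodes, and 2 of the 19 tested genes were higher and 7 lower, with a median log2 fold change of -0.65 against the second class. Without P28 replicate 2 the count against tympanic border barcodes was 2 higher and 4 lower of 20, beside 478 and 346 of all 9113 genes. With DESeq2 it was 4 higher and 6 lower, beside 999 and 751 of all 10770 genes. Immediate early and heat shock genes, which can respond to digestion of the tissue, were counted as a check. Against tympanic border barcodes 5 of the 22 tested genes were higher and 12 lower, with a median log2 fold change of -0.62, and against the second class 3 of the 18 tested genes were higher and 3 lower, with a median log2 fold change of -0.18. In the first of these Fos and Klf2 were lower at -1.71 and -3.19, and Hspa1a and Dusp1 higher at 1.71 and 1.39, but Hspa1a did not pass with at most 3000 genes and 15000 UMIs (edgeR adjusted p = 0.184) and Dusp1 did not with the members at 8000 Coch CPM and over (edgeR adjusted p = 0.0627). Against the second class Dusp1 was higher at 1.12, but it did not pass the test without P28 replicate 1 or 2 (edgeR adjusted p = 0.173 and 0.115) or without the replicate block (edgeR adjusted p = 0.141). Without the block Fos and Dusp1 were not called against tympanic border barcodes either (edgeR adjusted p = 0.114 and 0.0577).

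**Figure D4:**
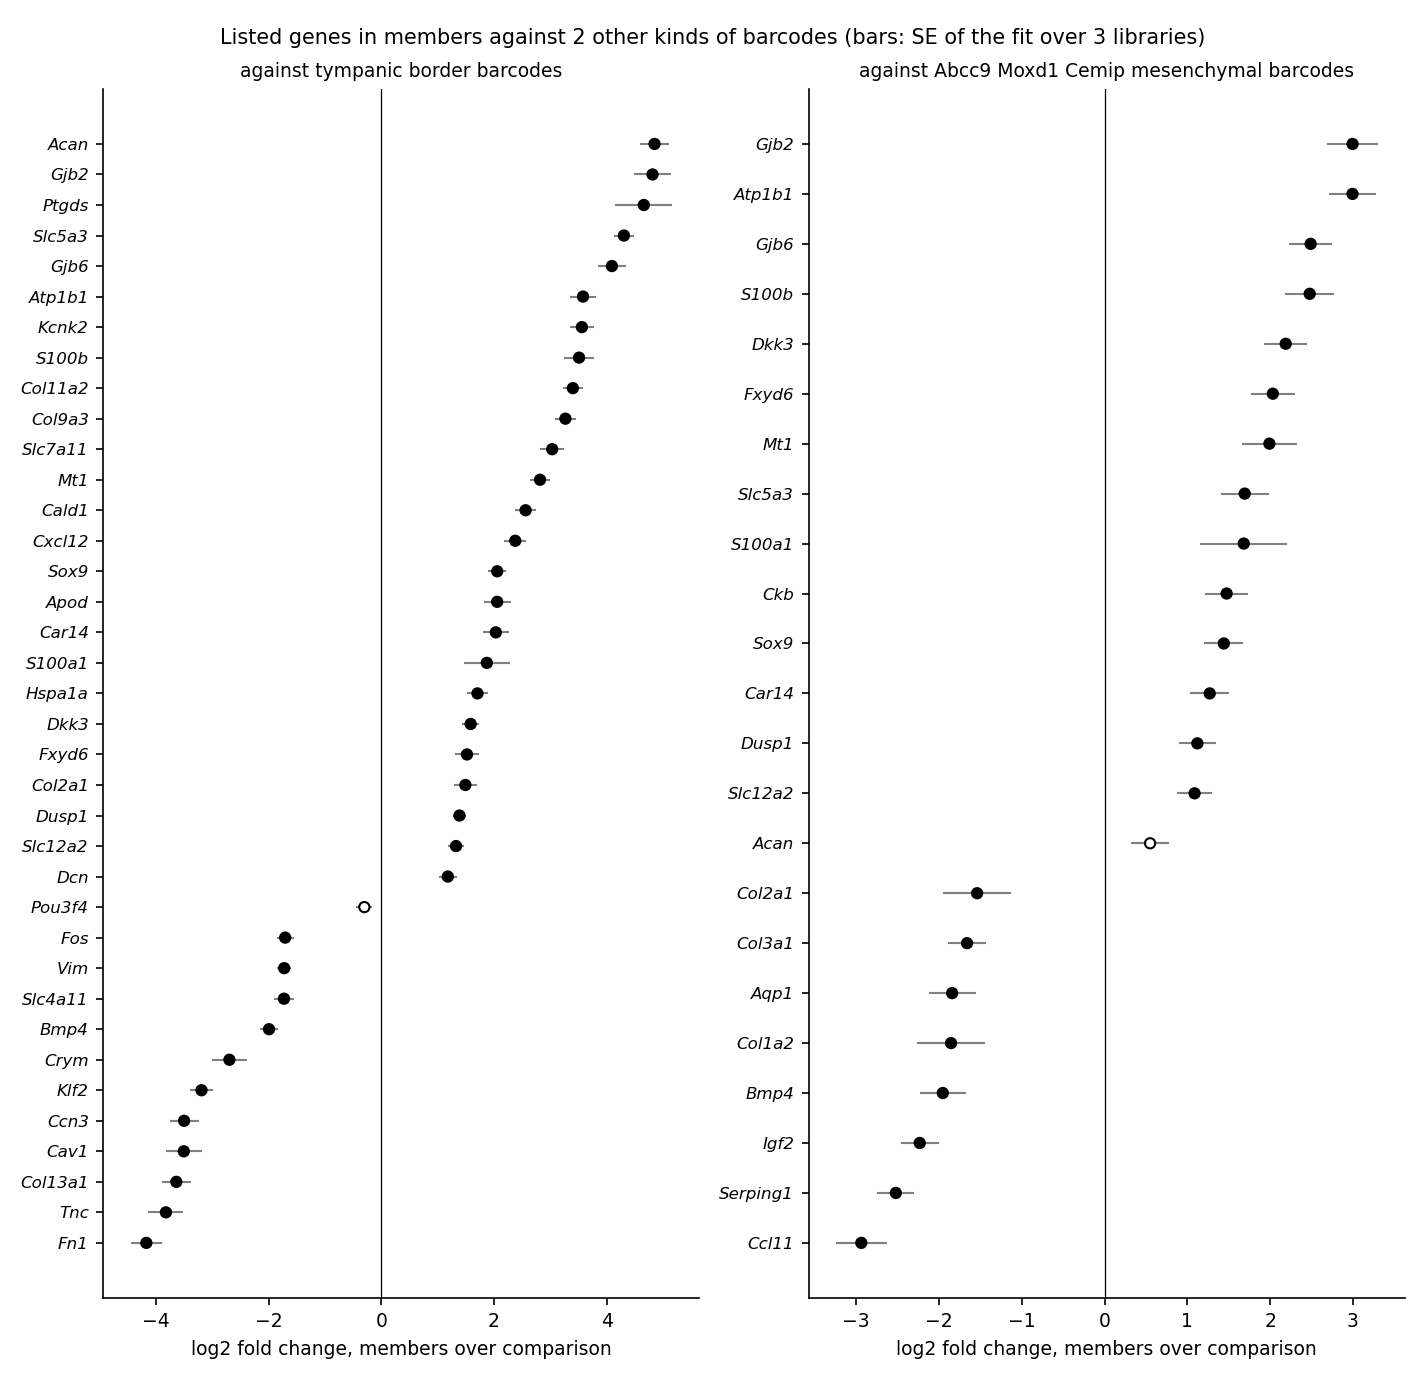
Log2 fold change of listed genes in members over each comparison class, 1 panel per class, with bars for the SE of edgeR's quasi-likelihood fit over 3 libraries. Gjb2 lies at 4.82 and 2.99, and Col2a1 at 1.49 and -1.54.

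The largest differences over all genes tested were then named by size, whether or not a list held them. Against tympanic border barcodes, Fxyd2 stood at 610.1, 3904 and 3458 CPM in members and 9.22, 112 and 42.4 CPM in the other class, with a log2 fold change of 5.67 ± 0.33 (SE; edgeR adjusted p = 7.95e-09). It was 2.65 in the members at 8000 Coch CPM and over and 5.96 in the others. The proline transporter Slc6a7, the sorting receptor Sorcs3, Spaar, Tyrp1 and the transcription factors Ehf and Zic1 followed, at log2 fold changes of 5.65, 5.37, 5.47, 5.32, 5.32 and 5.05. Sorcs3 stood at 111, 91.1 and 78.5 CPM against 0, 1.39 and 2.46 CPM. Spaar stood at 13.9, 6.61 and 10.7 CPM against 0, 0.279 and 0 CPM. Its exact fold rests on few UMIs and ran from 5.38 to 7.04 over the alternatives. The ligand gene Wnt2 had 41.6, 12.5 and 8.16 CPM in members and no UMI in tympanic border barcodes, and over the summed classes it was at least 27.8-fold higher, set against a floor of 3 UMIs over the class. The reverse held for D630033O11Rik, with no UMI in members and 32.3, 9.76 and 8.13 CPM in the other class, at least 10.8-fold lower in members. Cxcl13, Irf4, Sp5, Ankrd63, Fibcd1, A330076C08Rik and Notumos were lower, at -4.83, -4.55, -4.52, -4.40, -4.32, -4.57 and -5.54. In members Irf4, Fibcd1 and A330076C08Rik were found in P28 replicate 2 only, at 1.02, 1.53 and 0.510 CPM. Their exact folds therefore rest on few UMIs, and Fibcd1 ran from -7.69 to -3.16 over the alternatives. Notumos is antisense to Notum, a gene of the gate, so its level is not independent of the rule.

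Against the Abcc9, Moxd1 and Cemip barcodes, Tyrp1, Fxyd2, Kcnk2 and Ptgds led the higher genes by fold change. Fxyd2 stood at 23.3, 135 and 159 CPM in these barcodes, with a log2 fold change of 4.63 ± 0.33 (SE; edgeR adjusted p = 6.28e-06) that was 1.54 in the members at 8000 Coch CPM and over and 4.91 in the others, and Kcnk2 at 40.8, 153 and 162 CPM, with 3.63 ± 0.33 (SE; edgeR adjusted p = 1.52e-05). In the members at 8000 Coch CPM and over Kcnk2 stood at 0.67 against this class, which did not pass the test (edgeR adjusted p = 0.233). Cox7a1, a subunit of cytochrome c oxidase, and Ppargc1a, the coactivator of mitochondrial genes, were higher by 3.35 and 3.22, and Ppp1r1b and Nat8f5 by 3.19 and 3.14. Over the alternatives Cox7a1 and Ppp1r1b went down to 1.81 and 1.84, and Ppargc1a and Nat8f5 to 3.01 and 2.71. Tyrp1, an enzyme of melanin synthesis, had 41.6, 36.0 and 32.6 CPM in members and no UMI in these barcodes, at least 9.46-fold higher over the summed classes. Of the other pigment cell markers, Dct, Tyr, Pmel and Mlana had no UMI in members at P14 and in P28 replicate 1, where Tyrp1 was present, and Dct had 163 CPM in P28 replicate 2. Among the lower genes were Mfap4, Fst, an inhibitor of activins, the hedgehog inhibitor Hhip, the pericyte channel Kcnj8, the integrin Itga8, the basement membrane collagens Col4a3 and Col4a4, and Ogn. Fst stood at 41.6, 62.4 and 55.6 CPM against 251, 899 and 596 CPM, with a log2 fold change of -3.57 ± 0.25 (SE; edgeR adjusted p = 6.28e-06), and Ogn at 27.7, 162 and 181 CPM against 648, 1375 and 1115 CPM, with -3.06 ± 0.31 (SE; edgeR adjusted p = 3.79e-05). The other 6 lay between -3.89 and -3.15. Every member library was below every library of the comparison class for Fst and Ogn.

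P14 and P28 members were set side by side with no test, since P14 has 1 library of 18 members. A gene was counted when P14 differed at least 2-fold from each P28 library in the same direction, with at least 100 CPM at the higher age and 95% Poisson intervals, which cover counting error only, that did not overlap. Of 2037 genes that reached 100 CPM, 200 (9.82%) were higher at P14 and 95 (4.66%) were higher at P28. Among the former were Malat1, Gm42418, Lars2 and AY036118, by smaller ratios to the P28 libraries of 2.21, 6.47, 9.99 and 47.6. The mitochondrial genes mt-Co1, mt-Co2, mt-Co3, mt-Atp6 and mt-Cytb were higher at P28, by 2.22, 2.52, 3.20, 2.90 and 2.63. The mitochondrial mt-Atp8 was higher at P14, by 5.90. The part of RNA quality in the counts was not tested. Of the 13 collagens that reached 100 CPM, 11 were higher at P14 and none at P28. Col2a1 stood at 2981, 162 and 159.6 CPM, Col1a2 at 3813, 466 and 526 CPM and Col11a2 at 1553, 453 and 394 CPM. Bone genes moved with the collagens. The 4 P14 members with over 9% of their UMIs on Ibsp, Bglap, Bglap2 and Dmp1 held 129 of the 215 Col2a1 UMIs and 149 of the 275 Col1a2 UMIs at P14. In the 4 deepest P14 members Col2a1 stood at 207 CPM and Col1a2 at 1563 CPM, and in the other 10 at 7104 and 4073 CPM. Without the members with a UMI of these bone genes, 9 of 12 collagens were higher at P14, beside 9.06% of all genes, with Col2a1 at 708, 102 and 103 CPM, and Col11a2, at 397, 388 and 349.9 CPM, no longer differed 2-fold. Of 15 matrix genes 8 were higher at P14 and Ogn was higher at P28, at 27.7, 162 and 181 CPM, and without those members 3 of 9 were higher at P14 and none at P28, beside 9.06% and 3.20% of all genes. Of the 10 ion transport genes, 3 were higher at P28, among them Atp1b1 and Fxyd6, and Kcnj16 was higher at P14, while neither of the connexins passed the fold. Gjb2 stood at 1830.2, 3315 and 2393 CPM and Gjb6 at 735, 1196 and 997 CPM.

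In the other lists, Igf1, Igfbp3, Igfbp5 and Wif1 were higher at P14 and Dkk3 at P28, of 9 growth factor genes. Ptgds was higher at P28 of 10 metabolite genes, and Runx2 at P14 and Tbx1 at P28 of 9 transcription factors. All 9 Runx2 UMIs at P14 lay in the 4 members with over 9% bone gene UMIs, and without the members with a UMI of the bone genes Runx2 had none at P14. Without those members Igfbp5, Wif1, Hspa5, Hspb1, Atp1b1 and Fxyd6 were not counted either. Tpm1 and Lgals1 were higher at P14 of 12 cytoskeleton genes, and Hspa5 at P14 and Dusp1 and Hspb1 at P28 of 9 stress genes. Both carbonic anhydrase and aquaporin genes that reached 100 CPM stayed within the fold.

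Genes known from bone, from red cells and from the sex chromosomes had the largest ratios between the ages. Ibsp, bone sialoprotein, stood at 11092, 0 and 2.04 CPM, and the osteocalcin genes Bglap and Bglap2 at 1941, 0.735 and 4.59 and 971, 1.47 and 2.04 CPM. The 5 bone-forming markers summed to 14419, 67.6 and 66.8 CPM in members, with Ibsp the most abundant at P14 and Dmp1 at P28. At least 5 UMIs of Ibsp, Bglap, Bglap2 and Dmp1 were found in 5, 1 and 3 members, and at least 1 in 8, 56 and 85. At P14 these genes made up 9.80%, 11.4%, 11.7% and 18.2% of the UMIs of 4 members of 1474 to 3223 UMIs. The deepest 4 P14 members, of 4699 to 21985 UMIs, had none, and 3 of them carried Kcnk2. Without the members with a UMI of these genes, 198 of 2186 genes (9.06%) were higher at P14 and 70 (3.20%) at P28. Whether single droplets held a fibrocyte with a bone-forming cell was not tested.

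**Figure D5:**
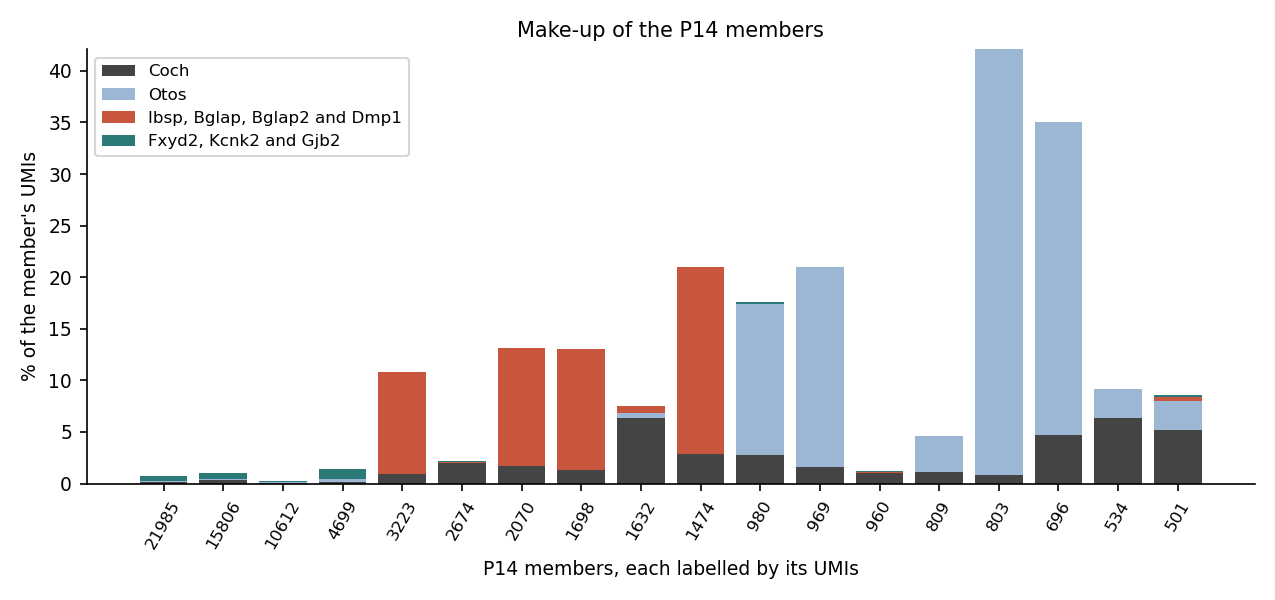
Share of each P14 member's UMIs (%) taken by Coch, Otos, bone genes and the sum of Fxyd2, Kcnk2 and Gjb2, with 1 stacked bar for each of the 18 members, labelled by its UMIs. The 4 deepest members have no bone UMIs, and bone genes take 9.80% to 18.2% of 4 others.

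Ptgis, which makes prostacyclin, Hamp and Ifitm5 were also named at P14, at 236, 0.735 and 0.510, 153, 0.735 and 0.510 and 139, 0 and 2.04 CPM. Xist, the noncoding RNA of the inactive X chromosome, stood at 444, 0 and 0 CPM in members. Over all barcodes of a library it had 3397, 14 and 9 UMIs, while the Y-linked Ddx3y had 232, 3355 and 3880, and the sex of the animals and their age cannot be told apart. At P28 the haemoglobin genes led, with Hbb-bs at 208, 5289.9 and 4291 CPM and Hba-a1 at 55.5, 1979.8 and 1607 CPM, and the red cell list summed to 333, 9328 and 7916 CPM. The hair cell gene Ocm, at 41.6, 450.3 and 375 CPM, and Pcp4, at 69.3, 456 and 425 CPM, the interferon-induced Ifi27l2a, at 13.9, 605 and 390.5 CPM, and Ppp1r1b, at 41.6, 468 and 370.1 CPM, were higher at P28 too. Their source, in the members or in free RNA, was not tested. Smpd3, a gene of the gate, stood at 1179, 17.6 and 15.3 CPM and is given as a description.

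Members with at least 3 of the 5 markers of another of 18 cell types numbered 9 of 18, 104 of 315 and 197 of 551. These were 50%, 33.0% and 35.8% of members, beside 59.6%, 56.6% and 50.8% of all other barcodes within the limits. The shares were 30.8%, 53.1% and 51.5% in tympanic border barcodes. In the Abcc9, Moxd1 and Cemip barcodes they were 18.9%, 15.3% and 30.1%, below members in every library. The marker list of strial basal cells accounted for 4, 51 and 95 of these members, with the list summed to 1095, 1077 and 1192 CPM, Nr2f2 its most abundant gene at 541, 580.3 and 532 CPM and Atp6v0a4 without a UMI in any library. It was found in 22.2%, 16.2% and 17.2% of all members, beside 6.51%, 16.6% and 17.1% of all other barcodes. Markers of organ of Corti supporting cells were found in 1, 15 and 29 members, with S100a1 the most abundant. Outer hair cell markers were found in 0, 8 and 12 members, spiral ganglion neuron markers in 0, 6 and 15, with Snap25 the most abundant, and macrophage markers in 0, 8 and 14. Snap25 was among the genes that differed most between the ranges of Coch, at 238 and 349.8 CPM under 8000 Coch CPM against 24.9 and 26.7 CPM at 8000 and over. Without all barcodes of either class that carried such markers, 847 genes were higher and 738 lower than in tympanic border barcodes.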

How the data were processed

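Cell-by-gene UMI counts were deposited by the authors as raw, unnormalized count matrices of the barcodes that Cell Ranger kept; the submitters' processing notes name Cell Ranger 6.0.1 and mm10, and the file header cellranger 5.0.1. Members were found by the gate described, applied to each library. The members, gene lists and tests were chosen with earlier results of these data known. No doublet caller was run. Some results are not reported here. UMIs were summed per library and class and tested with edgeR 4.0.16 (TMM scaling, filterByExpr, quasi-likelihood test, library as a block) in R 4.3.3. The 15 genes of the gate were left out of the lists and of the genes named from the tests. They were not left out of the fit or of the counts of all genes. Deviations of the sums from the class means correlated within each library by 0.212, 0.190 and 0.224 in the first comparison and 0.264, 0.221 and 0.195 in the second, and the pairing comes from the shared library. Standard errors are the log2 fold change divided by the square root of F. Beside the lists, the text names per comparison and direction the 8 genes with the largest fold change among those called, in the same direction in 3 libraries and with at least 30 UMIs; for age the 8 with the largest smaller ratio; the 10 most abundant, most variable and most enriched genes. Members were thinned at random to 1000 UMIs for the comparisons of single members. The alternatives were DESeq2 1.42.0, no block, other limits and filters, thinning, leaving out a library, and the ranges of Coch. The scripts were tested on simulated data. Symbols and gene positions are those of the files and of GENCODE M21 on mm10. Depth per library is given above, and intervals cover counting error only.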

Additional observations from a re-analysis of the deposited data

How the results depend on the processing

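Both comparisons kept genes called in each direction under every alternative run, but their number moved. Against tympanic border barcodes, 3727 genes were called. Without the replicate block, which sets aside the pairing by library, 2428 were called, with DESeq2 1750, with at least 10 UMIs in every sum 708, with at most 3000 genes and 15000 UMIs per barcode 1557, without barcodes with markers of another cell type 1585, with barcodes thinned to 1000 UMIs 997, and with the members at 8000 Coch CPM and over 1110. Leaving out a library gave 824 (without P28 replicate 2) to 4711 (without P14), with 1311 without P28 replicate 1. Counts of the lists moved too. Without P28 replicate 2, 478 of all 9113 genes were higher than in tympanic border barcodes and 346 lower. Of the collagens, 8 of 23 were higher and 4 lower. For growth factors these were 4 and 3 of 23, and for chemokines, cytokines and complement 1 and 3 of 13. For immediate early and heat shock genes they were 2 and 6 of 20. Against the Abcc9, Moxd1 and Cemip barcodes, 774 genes were called. The count was 495 without the replicate block, 384 with DESeq2, 335 with at least 10 UMIs, 287 with at most 3000 genes and 15000 UMIs, 1234 with mitochondrial UMIs up to 30%, 229 thinned and 186 at 8000 Coch CPM and over. Leaving out a library gave 338 (without P28 replicate 1) to 1478 (without P14), with 368 without P28 replicate 2. The 295 genes past the fold between the ages fell to 149 (116 higher at P14 and 33 at P28) in thinned members, and were 372 and 386 with only 1 P28 library. The 884 members became 1826 with mitochondrial UMIs up to 30% and 574 without markers of other cell types. Several of these alternatives also had fewer genes, barcodes or samples in the fit, and the cause of the smaller counts was not tested.

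Of 1323 alternative values for 92 named results, 1260 kept their direction and side of the threshold, 48 were no longer called, 8 became called and 7 changed direction, 6 of these 7 with the ranges of Coch, which were chosen after seeing the data. Against tympanic border barcodes, Fxyd6 was at -0.36 and Dkk3 at -0.48 with the members at 8000 Coch CPM and over, and Col2a1 at -1.70 with those under 8000. Against the second class, Fxyd6 was at -0.000797 and Col2a1 at 0.49 with the members at 8000 and over, and Acan at -1.59 with those under 8000 and -0.15 without members with a bone gene UMI. Without the replicate block 9 named calls were lost. The P14 sum of 72125 UMIs limits what could be seen there.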
